A study of Mus musculus with 2 samples.

Results

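The 10 genes described here carry glucose into mouse CD8+ T cells, break it down and send lactate out: the glucose transporter genes Slc2a1 and Slc2a3, the hexokinase genes Hk1 and Hk2, the phosphofructokinase genes Pfkl and Pfkp, the regulatory enzyme gene Pfkfb3, the lactate dehydrogenase gene Ldha and the lactate carrier genes Slc16a1 and Slc16a3. They were taken by symbol as a fixed pathway list, and all 10 had a probe set that names them alone, out of 22180 genes measured. RNA came from 2 cultures, and each was read on 1 Affymetrix array. The control culture held naive CD8+ T cells activated with beads that carry antibodies to CD3 and CD28, in recombinant human IL-2 at 100 U/mL, with the solvent dimethyl sulfoxide (DMSO). The other culture was handled alike with bezafibrate at 30 µM in place of solvent alone for the whole culture, and expansion ran until day 13. Bezafibrate is a fibrate, a class of lipid-lowering drugs that activate the PPAR nuclear receptors. No strain, age, sex or number of animals is given in the labels used here, and with 1 array for each condition no difference below has a replicate error or a test.

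Resting T cells use little glucose, and activation through the T cell receptor and CD28 raises glucose uptake and sends much of the pyruvate to lactate even when oxygen is present, which is called aerobic glycolysis. Transport across the membrane, phosphorylation by hexokinase and the phosphofructokinase reaction are the points at which the flow is chiefly set, and lactate leaves the cell through carriers that move it together with a proton. Each step is served by several isoforms, which differ in affinity, location and regulation.

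Values are log2 signals, on which 1 unit is a doubling. Background on each array was set at the 95th percentile of 1394 olfactory and vomeronasal receptor genes, at 4.71 in control and 4.68 with bezafibrate. A gene counted as above the floor where its brighter array read over that array's median of all genes, 4.88 in control and 4.85 with bezafibrate. All 10 genes lay above background on both arrays and above the floor. A probe set has its own affinity, so a level is set against its array's background or against the same probe set on the other array, not against another gene. The labelled cell type was borne out by Cd3e, at 11.10 and 11.05, and Cd8a, at 10.82 and 10.68, and Gzmb read 11.33 and 11.26. Cd4 was within background at 3.88 and 4.29, as was Cd40lg. Of the other CD4 T cell markers, Zbtb7b (5.22 and 5.48) and Foxp3 (4.95 and 5.02) were above it. Markers of further cell types, some of them bright, are described below.

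The 10 genes differed in both directions between the arrays, and whether steps of the pathway differ from one another was not tested. Pfkl, Pfkp, Pfkfb3 and Ldha were higher with bezafibrate, from 1.16-fold for Pfkl to 1.25-fold for Pfkfb3. The lactate carrier Slc16a3 was 1.28-fold lower. Like Pfkl and Ldha, the transporters, the hexokinases and Slc16a1 stayed under 1.2-fold on their brightest probe set. Among the 10 genes 7 were higher, 3 were lower and the median log2 difference was 0.06, against 48.5% higher and 49.7% lower and a median of 0.00 over the 11438 genes above the floor. After subtraction of the median difference among genes of similar signal and similar length, 5 were higher and 5 lower, because Hk1 and Hk2 then read −0.06 and −0.01.

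At least 1.2-fold higher were 2 genes, Pfkp and Pfkfb3, a limit that 9.59% of all genes above the floor passed in that direction. At least 1.2-fold lower was 1 gene, Slc16a3, beside 10.4% of all genes, and over 10 genes the shares of 9.59% and 10.4% correspond to about 1 gene in each direction. Centring on housekeeping genes moved these shares of all genes to 13.9% higher and 7.03% lower. At 1.5-fold, passed by 0.664% of genes upward and 0.525% downward, none of the 10 was counted. The limit of 1.2-fold was chosen with earlier results of these arrays known.

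**Figure D1:**
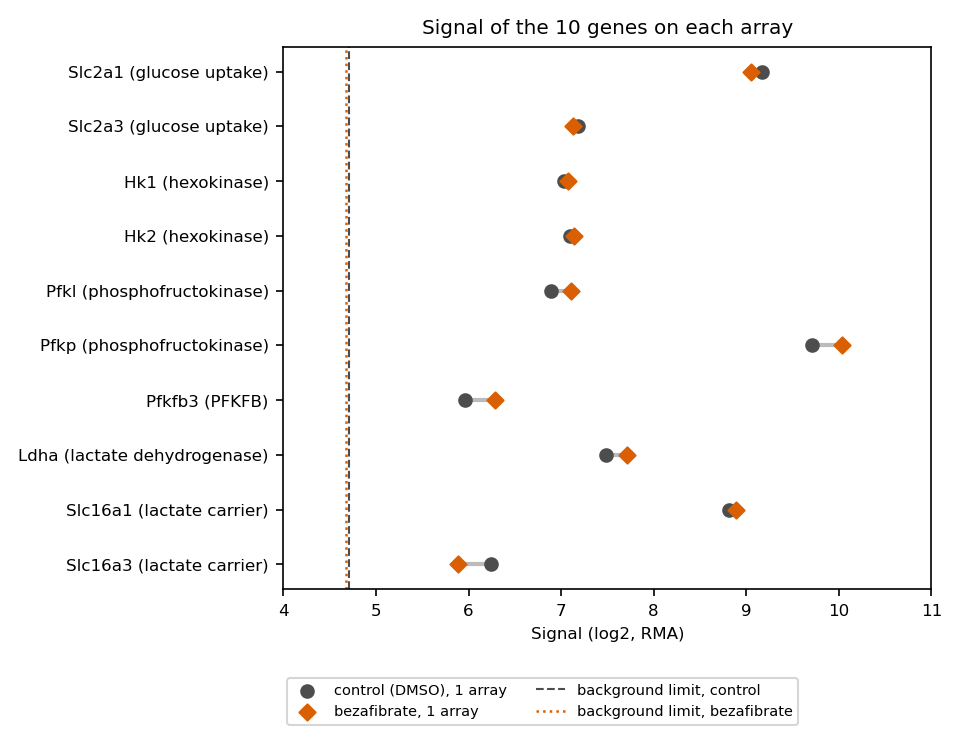
Signal of each gene on its brightest probe set (log2, horizontal axis) in control (grey circles) and with bezafibrate (orange diamonds), with the background limit of each array as a vertical line. All 10 genes sit at least 1.21 units above background, and the widest gaps between arrays are those of Slc16a3, Pfkfb3 and Pfkp.

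Of the glucose uptake genes, Slc2a1 was slightly lower with bezafibrate and Slc2a3 was nearly level. Slc2a1, which encodes GLUT1, the main glucose transporter induced on activated T cells, read 9.18 in control and 9.05 with bezafibrate, 1.09-fold lower and more than 4 units above background on both. A second probe set of Slc2a1, dimmer at 5.44 and 5.04, was 1.32-fold lower, so both probe sets point the same way with sizes that differ. Slc2a3, which encodes the high-affinity transporter GLUT3, read 7.18 and 7.13, 1.03-fold lower and about 2.5 units above background, with differences from −0.16 to −0.00 over the other ways of processing. The balance of Slc2a3 against Slc2a1, in which the affinity of each probe set cancels between the arrays, shifted by 0.07, by 0.21 with the mean of each gene's probe sets and by −0.01 after the subtraction for signal and length, so no direction of this balance is given. Neither uptake gene left the range of −0.37 to 0.32 (Slc2a1) or −0.36 to 0.43 (Slc2a3) that holds 95% of the differences in the same of 10 equal classes of signal.

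Of 12 further sugar transporter genes, 4 were above background on at least 1 array. Slc2a9, a urate and hexose transporter, read 5.68 and 6.21, and Slc2a6 read 5.29 and 5.56, so both passed 1.2-fold upward. Slc2a8 (6.08 and 6.13) and Slc2a13 (4.73 and 4.81, a proton-coupled inositol transporter) differed less. Slc2a2 and Slc2a4, the transporters of liver and of insulin-responsive muscle and fat, were within background on both arrays, as were the sodium-coupled glucose carriers Slc5a1 and Slc5a2. Among these transporter genes, signal above background was thus read for Slc2a1 and Slc2a3 and, closer to background, for Slc2a6, Slc2a8 and Slc2a9. Slc2a13 stood only 0.02 units above it in control and 0.13 with bezafibrate.

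Hk1 and Hk2 were each nearly level between the arrays, each read on a probe set that names it alone. Hk1, the widely expressed hexokinase, read 7.03 and 7.07, and Hk2, the isoform that is induced in activated and growing cells, read 7.09 and 7.14. Each was 1.03-fold higher with bezafibrate, and each stood between 2.33 and 2.46 units above background. The balance of Hk2 against Hk1 shifted by 0.01, and by 0.05 after the subtraction for signal and gene length. A dimmer probe set that names both Hk1 and Hk1os, its overlapping opposite-strand gene, read 5.87 and 5.60. It was 1.21-fold lower with bezafibrate, opposite in direction to the probe set of Hk1 alone. Of the other hexokinases, Hk3 was within background on both arrays at 4.54 and 4.45, and Hkdc1 at 4.69 and 4.86 was above background with bezafibrate alone. Adpgk, an ADP-dependent glucokinase known from T cell activation, read 7.01 and 7.15. The first phosphorylation of glucose was therefore read for Hk1, Hk2 and Adpgk on both arrays.

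Pfkp, Pfkl and Pfkfb3, the genes of the phosphofructokinase step among the 10, were each higher with bezafibrate. Pfkp, the platelet-type subunit, was bright at 9.71 in control and 10.03 with bezafibrate, 1.25-fold higher and more than 5 units above background. Its difference of 0.3243 lay just past the upper end of the range of −0.37 to 0.3240 that holds 95% of genes in its class of signal, the brightest of the 10. Pfkl, the liver-type subunit, read 6.89 and 7.10, 1.16-fold higher and inside the corresponding range of −0.36 to 0.43. Pfkm, the muscle-type subunit, read 5.49 and 5.45, so of the 3 subunit genes Pfkp and Pfkl were higher and Pfkm was level. The balance of Pfkp against Pfkl shifted by 0.11, and by 0.02 after the subtraction for signal and gene length.

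The enzyme of Pfkfb3 makes the sugar bisphosphate that activates phosphofructokinase and favours its synthesis over its breakdown. Pfkfb3 read 5.96 in control and 6.28 with bezafibrate, 1.25-fold higher, with 95% of genes of like level between −0.42 and 0.40. The related enzymes did not follow it. Pfkfb2 read 5.53 and 5.60, and Pfkfb4 read 5.03 and 4.71, 1.24-fold lower and only 0.03 units above the bezafibrate background. Tigar, a phosphatase that removes the same activator, read 6.41 and 6.52. Among the measured PFKFB genes, Pfkfb3 was thus the one past 1.2-fold upward and Pfkfb4 the one past it downward. After the subtraction for signal and gene length, Pfkp read 0.22, Pfkfb3 0.24 and Pfkl 0.21, so that the higher sign of each was kept but no gene of the 10 was then at least 1.2-fold higher.

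**Figure D2:**
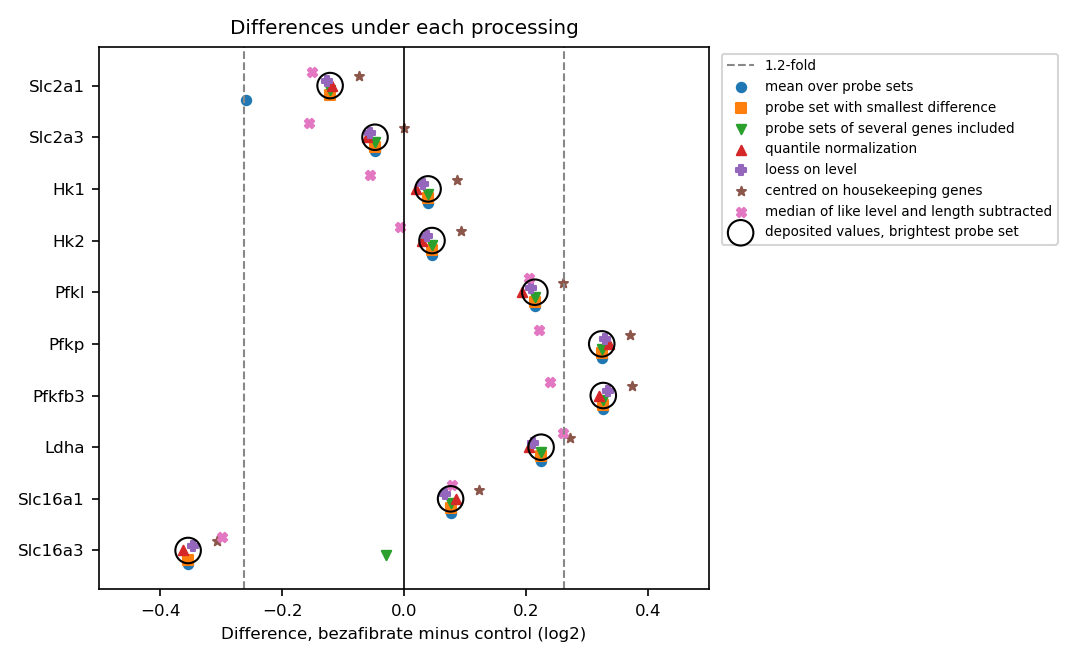
Log2 difference of each gene, bezafibrate minus control (horizontal axis), with the deposited values on the brightest probe set (open circles) and under 7 other ways of processing (small symbols). Dashed lines mark 1.2-fold in either direction, and the symbol farthest from its circle is Slc16a3 at −0.03, read on a probe set shared with Csnk1d.

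Lactate genes differed in both directions. Ldha, which encodes the lactate dehydrogenase subunit that turns pyruvate into lactate, read 7.48 in control and 7.71 with bezafibrate, 1.17-fold higher, with 95% of genes of like level between −0.38 and 0.39. Ldhb, the subunit that favours the reverse reaction, was within background on both arrays at 4.22 and 4.29, and Ldhc and Ldhd were also within background. Lactate dehydrogenase was thus read above background for Ldha alone of the 4 genes. After the subtraction for signal and gene length, the difference of Ldha was 0.26.

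Of the carriers that move lactate out of the cell, Slc16a1 was nearly level between the arrays and Slc16a3 was lower with bezafibrate. Slc16a1, which encodes MCT1, a carrier that can run in either direction, read 8.81 and 8.89, 1.05-fold higher and more than 4 units above background. Slc16a3 encodes MCT4, a carrier known for lactate export from strongly glycolytic cells. It read 6.24 and 5.89, 1.28-fold lower and 1.21 units above background on the bezafibrate array. Its difference of −0.35 lay inside the range of −0.42 to 0.40 given above for Pfkfb3, a gene of the same class of signal. In that class, 11.5% of genes were at least 1.2-fold lower. The balance of Slc16a3 against Slc16a1 shifted by −0.43, a 1.35-fold shift and, on these probe sets, the largest of the 4 isoform pairs. This result rests on 1 probe set. A brighter one, which names both Slc16a3 and its neighbour Csnk1d, read 7.88 and 7.85, and with it in use the difference of Slc16a3 was −0.03 and the shift −0.11, no larger than that of Pfkp against Pfkl, so that no gene of the 10 was at least 1.2-fold lower.

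Basigin and embigin, membrane proteins that carriers of this family need to reach the surface, were bright on both arrays. Bsg read 9.72 and 9.64, and Emb read 10.03 and 10.18 on its brighter probe set and 5.70 and 5.61 on the other. Of 11 further measured Slc16a genes, 5 were above background on at least 1 array. Slc16a6, a ketone body carrier, read 8.24 and 8.33, and Slc16a10, an aromatic amino acid carrier, read 6.17 and 5.92. Slc16a13 read 6.15 and 6.35, Slc16a5 4.99 and 5.14 and Slc16a9 4.73 and 4.94. None of these above background passed 1.2-fold, and Slc16a7, which encodes MCT2, was within background at 3.04 and 3.13.

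**Figure D3:**
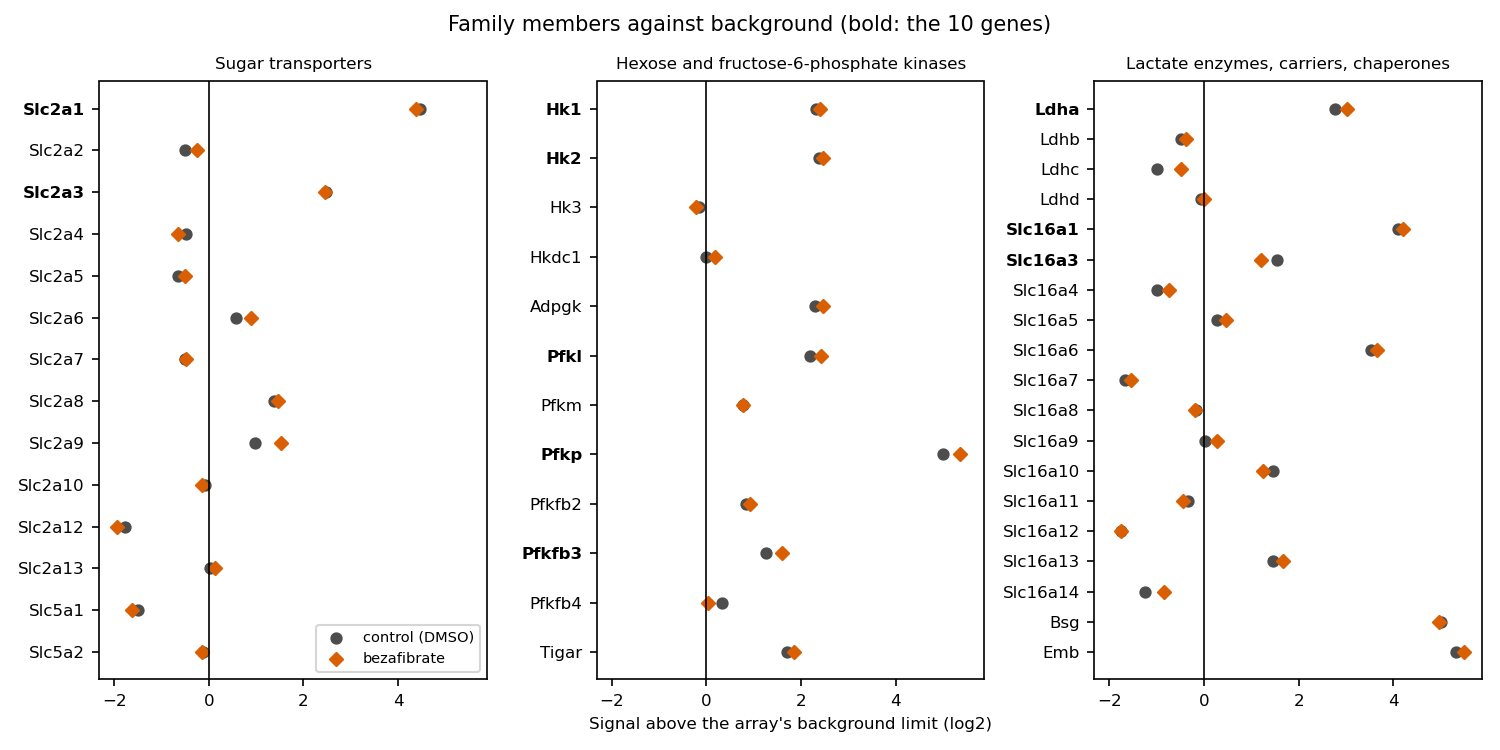
Log2 signal above the array's own background limit (horizontal axis) for measured sugar transporters, for hexose and fructose phosphate kinases with Tigar, and for lactate enzymes, carriers and their chaperones, in control (grey circles) and with bezafibrate (orange diamonds). Gene names in bold are the 10 genes, and points left of the line at 0 are within background, as for Ldhb, Slc2a2 and Slc16a7.

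Promoter sequence is shown for the genes of the phosphofructokinase step, for Ldha and for Slc16a3, since these gave the differences above and several are known targets of HIF-1, the hypoxia-inducible factor that also acts in activated T cells. RefSeq windows on build GRCm38.p6 were at hand for 9 of the 10 genes, with 12 start sites in all, and Slc2a3 had no window. Each sequence runs 5′ to 3′ over the 250 bases before the start. Capitals mark ACGTG and GCGTG, the core letters of HIF sites, on either strand, and overlapping matches form a single stretch of capitals. Both Pfkfb3 windows are shown, and of the pair for Ldha the one with more cores; the other, at chr7:46846832-46847081, held 1 core and no E-box. The build used to design the arrays is not given in the sources used here, so the coordinates belong to the RefSeq windows and not to the probe sets.

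Pfkl, chr10:78009808-78010057, minus strand: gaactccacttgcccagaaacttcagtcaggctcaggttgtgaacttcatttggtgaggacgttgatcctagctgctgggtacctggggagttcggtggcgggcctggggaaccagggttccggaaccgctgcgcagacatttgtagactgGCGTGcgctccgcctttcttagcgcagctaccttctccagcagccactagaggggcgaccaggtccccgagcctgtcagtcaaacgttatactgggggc
Pfkp, chr13:6648772-6649021, minus strand: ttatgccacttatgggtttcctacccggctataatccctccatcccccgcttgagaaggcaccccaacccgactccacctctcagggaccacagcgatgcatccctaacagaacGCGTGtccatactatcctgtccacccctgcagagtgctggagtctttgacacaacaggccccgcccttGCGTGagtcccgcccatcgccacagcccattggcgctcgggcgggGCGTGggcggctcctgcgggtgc
Pfkfb3, chr2:11553930-11554179, minus strand: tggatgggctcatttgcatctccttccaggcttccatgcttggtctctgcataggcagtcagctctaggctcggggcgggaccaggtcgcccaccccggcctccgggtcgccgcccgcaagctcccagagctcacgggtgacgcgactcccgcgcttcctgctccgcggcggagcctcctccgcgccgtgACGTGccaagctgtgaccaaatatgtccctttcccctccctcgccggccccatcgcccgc
Pfkfb3, chr2:11502091-11502340, minus strand: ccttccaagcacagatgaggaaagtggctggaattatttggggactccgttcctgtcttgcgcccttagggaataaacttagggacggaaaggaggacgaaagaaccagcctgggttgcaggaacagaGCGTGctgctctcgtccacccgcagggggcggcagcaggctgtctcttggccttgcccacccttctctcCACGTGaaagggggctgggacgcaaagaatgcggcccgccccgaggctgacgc
Ldha, chr7:46845554-46845803, plus strand: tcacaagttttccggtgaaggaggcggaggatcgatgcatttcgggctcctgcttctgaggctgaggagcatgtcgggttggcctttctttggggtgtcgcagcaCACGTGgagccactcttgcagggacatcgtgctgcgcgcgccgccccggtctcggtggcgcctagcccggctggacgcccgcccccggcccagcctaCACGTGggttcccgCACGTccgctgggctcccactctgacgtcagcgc
Slc16a3, chr11:120948817-120949066, plus strand: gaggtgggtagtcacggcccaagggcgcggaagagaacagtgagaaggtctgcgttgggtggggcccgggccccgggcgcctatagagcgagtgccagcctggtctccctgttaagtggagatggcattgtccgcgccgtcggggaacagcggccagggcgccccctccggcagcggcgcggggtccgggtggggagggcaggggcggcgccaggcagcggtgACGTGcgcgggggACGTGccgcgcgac

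At least 1 such core was found in 11 of the 12 windows and in each of the 9 genes, with the exception of the window of Hk1 at chr10:62379909-62380158. Among all 32851 promoter windows of that length, 38.6% held a core. The windows of these genes are rich in G and C, and among the 9837 windows with at least 59% of these bases, which take in 10 of the 12, the share was 63.0%. Genes that were higher and lower with bezafibrate both held cores: Pfkp had 3 and Slc16a3 had 2. CACGTG, the E-box bound by MYC and related factors, overlaps ACGTG and was present in Ldha at 2 places, in Pfkfb3 and in Slc16a1, in 3 of the 12 windows, against 6.02% of all windows and 9.33% of those with at least 59% G and C. AGGTCA, the core letters of PPAR and other nuclear receptor sites, was searched on both strands and was in none of the 12 windows, and 14.0% of all windows and 8.63% of the G and C rich ones held it. A match of letters is a description of the window and not a binding site.

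Around the 10 genes, the rest of the pathway was mostly level. The middle of glycolysis was read brightly on both arrays, with Gapdh at 11.72 and 11.74, Pkm at 10.88 and 10.94, Pgk1 at 10.42 and 10.38, Tpi1 at 8.83 and 8.86 and Pgam1 at 8.40 and 8.49. Of 12 measured genes between hexose phosphate and pyruvate, 6 were higher and 6 lower, and of the 9 above the floor 1 passed 1.2-fold in each direction, with a median of 0.02. Bpgm, the mutase that diverts a glycolytic intermediate to bisphosphoglycerate, read 5.14 and 5.69, 1.47-fold higher. Eno3, the muscle-type enolase, read 7.22 and 6.87, 1.27-fold lower. The other 7 genes above the floor stayed under 1.2-fold. Gpi1 and Eno1 were not analysed here.

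Side branches that draw on glucose phosphate had a median of −0.01, with 6 of 13 measured genes higher and 7 lower. Gbe1, the glycogen branching enzyme, read 6.22 and 6.64, 1.33-fold higher, and Gfpt1, which opens the hexosamine pathway used for protein glycosylation, read 7.47 and 7.80, 1.26-fold higher. Pgls, an enzyme of the pentose phosphate pathway, read 7.04 and 6.74, 1.23-fold lower, although its dimmer probe set read 4.99 and 5.31. At the entry of pyruvate to mitochondria, Mpc1, a subunit of the mitochondrial pyruvate carrier, read 8.78 and 8.32, 1.38-fold lower, and its second probe set read 5.93 and 5.73. Pdhx, a structural component of pyruvate dehydrogenase, read 5.75 and 6.02, 1.21-fold higher, and the kinases Pdk1 and Pdk3, which restrain that complex, read 6.16 and 6.35 and 7.25 and 7.41.

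**Figure D4:**
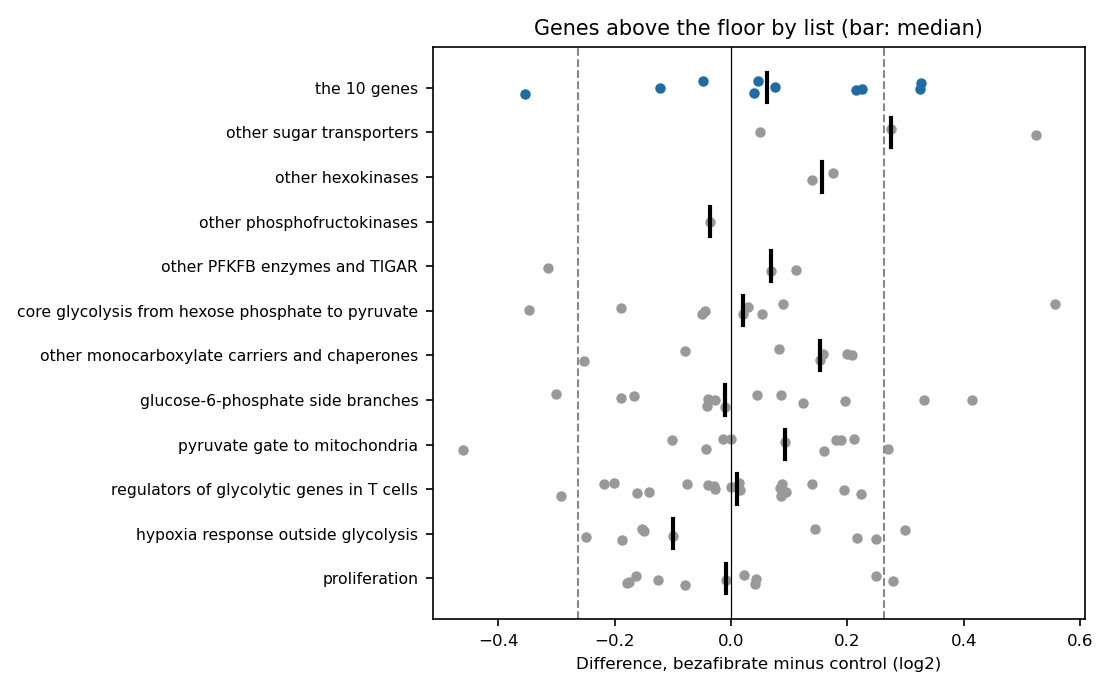
Log2 difference, bezafibrate minus control (horizontal axis), of every gene above the floor in the 10 genes (blue) and in 11 surrounding lists (grey), with the median of each list as a black bar and 1.2-fold as dashed lines. The 10 genes span −0.35 to 0.33, and most genes of the other lists lie inside 1.2-fold.

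Regulators of these genes differed little. Hif1a, the oxygen-regulated subunit of HIF-1, read 8.10 and 8.29, 1.14-fold higher, and Vhl, which marks that subunit for breakdown, read 6.74 and 6.45, 1.22-fold lower. Myc, a driver of glycolytic genes early after activation, read 9.26 and 9.12, Irf4, which sustains them, 6.15 and 5.95, and Mtor, the nutrient-sensing kinase, 7.30 and 7.53. Txnip, which lowers surface GLUT1 and is induced by glucose, read 9.82 and 9.60, 1.16-fold lower, and its relative Arrdc4 read 4.75 and 4.42, above background in control alone. Of the 21 regulators above the floor, 11 were higher and 9 lower, with 0 at least 1.2-fold higher and 1 (Vhl) at least 1.2-fold lower.

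Hypoxia response genes outside glycolysis did not share a direction: of 9 above the floor 4 were higher and 5 lower, with a median of −0.10. Kdm3a, a histone demethylase, read 7.92 and 8.22, Ero1a 8.25 and 8.50, Bnip3, a mitophagy receptor, 6.26 and 6.11, and Ndrg1 7.10 and 6.85. Proliferation genes had a median of −0.01, with 5 of 11 higher, among them Mki67 at 10.79 and 11.07 and Top2a at 10.42 and 10.66. Over all the surrounding lists, 8 of 90 genes (8.89%) passed 1.2-fold upward and 5 (5.56%) downward, counted above the floor, against 9.59% and 10.4% of all genes. These lists were chosen with earlier results of the arrays known.

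**Figure D5:**
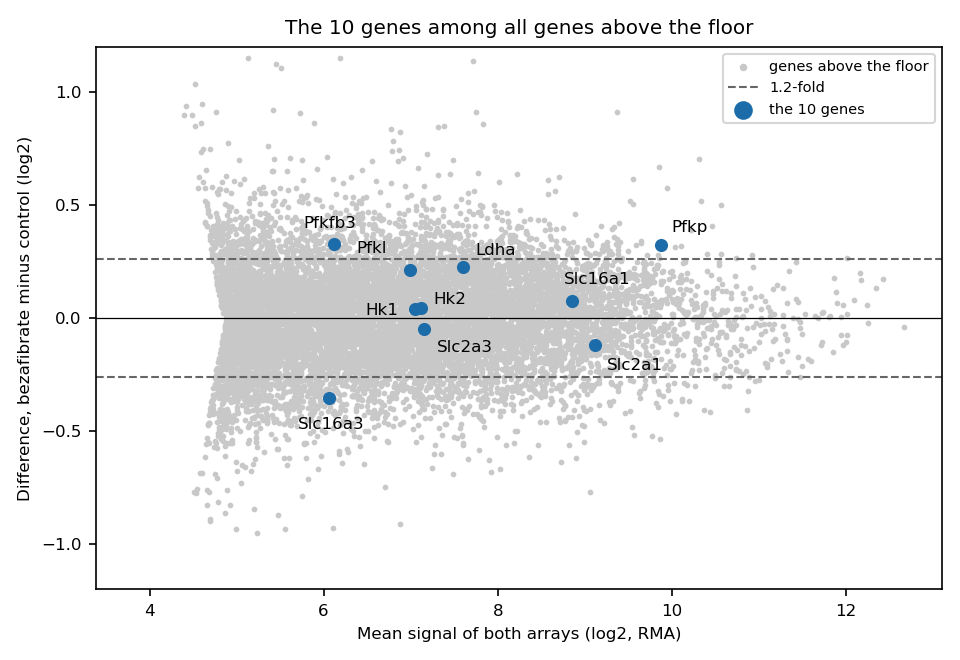
Log2 difference, bezafibrate minus control (vertical axis), against the mean log2 signal of both arrays (horizontal axis) for genes above the floor (grey), with the 10 genes in blue and 1.2-fold as dashed lines; 4 genes lie beyond the drawn range. The 10 genes lie within the cloud of other genes, with Pfkp among the higher genes at bright signal.

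Of 30 measured markers of other cell types, 9 were above background on at least 1 array. All 9 measured CD8 T cell markers of 11 listed were above background on both arrays. With bezafibrate 8 of them were lower, with a median of −0.14, beside 49.7% of all genes above the floor. After the subtraction for signal and gene length, Cd3e, Gzmb and Prf1 read 0.03, 0.06 and 0.12, and all the other measured markers of that list stayed lower. Neutrophil markers were within background in 6 of 6 cases, and of 5 measured B cell markers Cd79b (5.41 and 4.85, 1.47-fold lower) and Ighm (9.05 and 8.72, 1.26-fold lower) alone were above it, with Ms4a1, Cd79a and Pax5 within background. The summed signal of the B cell list on the linear scale was 617 in control and 495 with bezafibrate, most of it from Ighm. Dimmer Ighm probe sets above background read 7.60 and 7.34, and 6.07 and 5.82. Those within background went in both directions. Among 5 measured dendritic cell markers Cd209a alone was above background, at 8.55 with bezafibrate and 1.37-fold lower there than in control, although its second probe set was within background at 3.98 and 3.86. Of 4 natural killer cell markers, Fcer1g (6.57 and 5.64, 1.90-fold lower) and Tyrobp were above background, the latter with bezafibrate alone, and Ncr1 and Klrb1c were within it. Of 5 macrophage markers Csf1r and Cd68 were above background, at 4.73 and 4.80 and at 6.91 and 6.92, and of 4 CD4 T cell markers Zbtb7b and Foxp3, at 5.22 and 5.48 and at 4.95 and 5.02. The part of any such cells in the differences of the 10 genes was not tested, and in bulk RNA fewer cells of a type and less RNA per cell cannot be told apart.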

How the data were processed

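Total RNA of 1 control and 1 bezafibrate culture was amplified with a whole-transcript kit, per the labels' protocols, and read on 2 Affymetrix arrays. The deposited values are log2 signals. Per the submitters' processing notes, the authors used RMA and the Affymetrix Expression Console, whose versions the sources used here do not name. RMA gives both arrays the same distribution of signals, which hides any change common to most genes, and shrinks differences of dim genes. The number of arrays limits the precision.

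Probe sets with exactly 1 gene symbol in the platform annotation were used (23521), and the brightest stood for a gene. Differences are bezafibrate minus control, counted at 1.2-fold and 1.5-fold above the floor. No test was possible, so counts stand beside those of all genes, and a difference beside the central 95% of genes in the same of 10 equal classes of signal above the floor. Named are the 10 genes, family members above background and listed pathway genes past 1.2-fold, with some further genes for context, chosen after their values were seen. Members and lists were chosen with earlier results of these data known. Gene lengths (99.8% of genes) and promoter windows are RefSeq's, on GRCm38.p6. Python 3.11.15, numpy 2.4.6, pandas 2.3.3, statsmodels 0.14.6 and matplotlib 3.10.9 were used. The calculation was tested on simulated data with shifts of 1.5-fold and a narrower spread than on these arrays. That test covers the code and not the reading of 1.2-fold differences.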

Additional observations from a re-analysis of the deposited data

How the results depend on the processing

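Each of the 10 differences was recomputed in 7 ways: the mean of a gene's probe sets, its probe set of smallest difference, probe sets of several genes included, quantile normalization, a loess curve on level, centring on 8 housekeeping genes, and subtraction of the median among genes of similar signal and length. Pfkl, Pfkp, Pfkfb3, Ldha and Slc16a1 stayed higher and Slc2a1, Slc2a3 and Slc16a3 lower in all 7, and Hk1 and Hk2 turned lower under the last. The mean and the smallest difference could change Slc2a1 alone, the 1 gene with more than 1 probe set of its own. Including probe sets of several genes changed Slc16a3 alone, since the brightest set still stood for a gene. For the other genes, agreement under those ways was fixed in advance. Pfkp ranged from 0.22 to 0.37, Pfkfb3 from 0.24 to 0.37, Ldha from 0.20 to 0.27 and Pfkl from 0.19 to 0.26, with Ldha past 1.2-fold when centred on housekeeping genes. Slc2a1 ranged from −0.26, as the mean of its probe sets, to −0.07. After that subtraction, 0 genes were at least 1.2-fold higher, where the main count was 2. With probe sets of several genes included, 0 were at least 1.2-fold lower, where the main count was 1, and the Slc16a3 to Slc16a1 balance shifted by −0.11. Counted at 1.1-fold, 4 genes were higher and 1 was lower, but the share of all genes past that limit was not counted. At 1.5-fold, 0 were higher and 0 lower. The count of genes lower went from 3 to 5 after the subtraction, and the other counts past 1.2-fold stayed within 1.5 times. The median over the 10 genes and the other isoform balances moved by less than 0.21, the robust SD over genes above the floor, although the Slc2a3 to Slc2a1 balance turned from 0.07 to −0.01 after the subtraction and the Pfkp to Pfkl balance went from 0.11 to 0.02. Leaving out a replicate was not possible with 1 array a group.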

Other observations

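A probe set that names both Aldoa, the aldolase of the common glycolytic route, and Aldoart1 read 5.26 in control and 4.55 with bezafibrate, the second within background. It stayed out of the counts because it names 2 genes. A probe set of Bnip3l and its pseudogene read 8.27 and 8.04, and one of Tkt, the transketolase of the pentose phosphate pathway, and Mir3076 read 8.56 and 8.44.

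Of the surrounding pathway genes, the 2 farthest from 0 upward were Bpgm, at 0.56, and Slc2a9, at 0.52, each read by a single probe set. Farthest downward was Mpc1, at −0.46, whose second probe set had −0.19. For comparison, Slc16a3 had −0.35. The identity of the cells that give the Ighm and Cd209a signal was not tested.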
